A study of Mus musculus with 60 samples.

Results

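The calcium/calmodulin-dependent protein kinase genes Camk2a, Camk2b, Camk2d, Camk2g, Camk4, Camkk1, Camkk2, Camk1 and Camk1g, together with the neurogranin gene Nrgn, were examined by RNA-seq of the mouse hippocampus. These 10 genes were chosen by name from the 24508 gene symbols of the expression table, and all 10 passed the filter for testing. Libraries came from wild-type (WT) mice and from R6/1 mice, 9 per genotype, each from an independent biological replicate. All mice were 30 weeks old and came from a cross of CBA and C57BL/6. The R6/1 line expresses exon 1 of human huntingtin with an expanded CAG repeat under the human huntingtin promoter and serves as a model of Huntington's disease. Levels are given in RPKM, that is reads per kilobase of gene, so that levels of different genes can be set side by side. The scaling between libraries is the authors' own, and it is not a scaling to the sum of each library's reads.

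When calcium enters a neuron it binds calmodulin, and the calcium-loaded calmodulin switches on the CaM kinases. CaMKII is a ring of subunits encoded by Camk2a, Camk2b, Camk2d and Camk2g. It is among the most abundant proteins of the excitatory synapse and is required for long-term potentiation in the hippocampus. In a separate cascade the kinase kinases CaMKK1 and CaMKK2 phosphorylate and activate CaMKI in the cytoplasm and CaMKIV in the nucleus, where CaMKIV acts on CREB. Neurogranin is a small postsynaptic protein that holds calmodulin when calcium is low and releases it when calcium rises.

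Of the 10 genes, 7 were lower and 2 higher in R6/1 (limma, adjusted p under 0.05), and Camk1 did not pass. Among all 14446 genes tested, 23.5% were lower and 24.8% higher by the same rule. The median log2 fold change of the 10 genes was -0.49, against 0.00363 over all tested genes. Camk2a, Camk2b, Camkk1, Camkk2, Camk1g and Nrgn were lower in every R6/1 library than in every WT library, a separation in that direction shown by 6.38% of all tested genes. When libraries were instead scaled to the sum of their own reads, 66.9% of all calls were higher in place of 51.4%, and the 10 genes gave the same counts of 7 lower and 2 higher. In whole tissue, fewer cells of a type and less RNA per cell cannot be told apart.

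**Figure D1:**
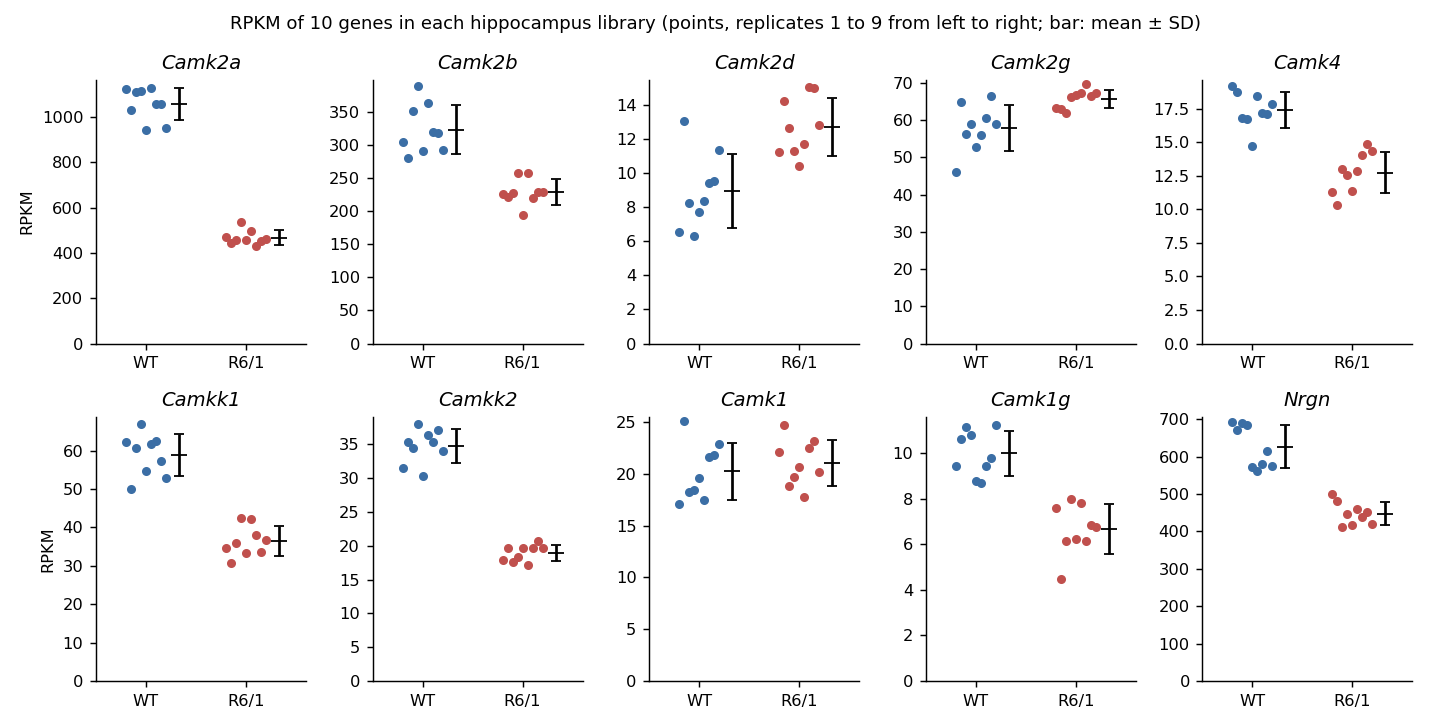
RPKM of each gene (vertical axes, from 0) in the 9 WT and 9 R6/1 libraries, one point per library, with the mean ± SD as a bar. The points of the genotypes do not overlap for Camk2a, Camk2b, Camkk1, Camkk2, Camk1g and Nrgn, and overlap widely for Camk1.

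The libraries held between 12299437 and 16457042 reads on genes in WT and between 13260303 and 16736547 in R6/1. Markers of the hippocampal cell types were present in both genotypes, and several lists moved with the genotype. All 5 pan-neuronal markers (Rbfox3, Syt1, Snap25, Tubb3 and Map2) fell, and their summed level ranged from 1639 to 1972 RPKM in WT and from 1295 to 1428 RPKM in R6/1. Of the markers tested, 5 of 5 for dentate granule neurons, 4 of 4 for CA1, 4 of 4 for CA3, 5 of 6 for inhibitory neurons, 5 of 5 for astrocytes and 4 of 5 for oligodendrocytes were lower. The excitatory neuron list had 2 lower and 1 higher of 4, and 2 of 5 microglial, 1 of 4 endothelial and 1 of 4 striatal markers were lower. By the same rule 23.5% of all tested genes were lower and 24.8% higher. The choroid plexus list ranged from 25.4 to 1738 RPKM across libraries, with wide overlap between genotypes. Of its genes, 0 of 5 passed with limma, 0 had an unadjusted p under 0.05 and 0 passed in the authors' deposited table. The part of these cell types in the results below was not tested. Fits without the libraries high in the choroid plexus list, and fits scaled to the pan-neuronal list, are given below with their values.

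Camk2a, which encodes the alpha subunit of CaMKII found in forebrain excitatory neurons, was the most abundant of the 10 genes and fell most. In WT its level ranged from 942 to 1129 RPKM with a median of 1059, and in R6/1 from 430 to 537 RPKM with a median of 457. The highest R6/1 library, replicate 4, lay far below the lowest WT library, replicate 5. The mean fell from 1057 ± 71.8 to 467 ± 32.1 RPKM (SD, n = 9 each), to 0.442 of the WT mean. The log2 fold change was -1.18 with an SE of 0.048 (limma adjusted p 2.76e-13), and by p-value Camk2a was number 7 of 14446 genes tested. Measured as a share of the reads of a library, which does not depend on the scaling between libraries, Camk2a took 0.553% ± 0.0275 in WT against 0.258% ± 0.0159 in R6/1 (SD, n = 9 each). Ordered by mean level among all genes of the table, Camk2a was number 6 in WT and number 47 in R6/1. The authors' deposited table gave a log2 fold change of -1.16 for Camk2a.

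Camk2b, the beta subunit that ties the holoenzyme to actin, fell by less. It ranged from 280 to 388 RPKM in WT with a median of 317, and from 193 to 257 RPKM in R6/1 with a median of 227. All R6/1 libraries were below all WT libraries, although the gap between the nearest libraries was small against the spread in WT. The mean fell from 323 ± 36.8 to 229 ± 19.3 RPKM (SD, n = 9 each), a log2 fold change of -0.49 with an SE of 0.063 (limma adjusted p 2.72e-06).

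The gamma and delta subunits, which many tissues use, rose. Camk2g ranged from 46.0 to 66.5 RPKM in WT with a median of 58.8, and from 62.0 to 69.6 RPKM in R6/1 with a median of 66.3. The R6/1 libraries sat at the upper end of the WT range, 4 of 9 of them above every WT library, and they were tighter (coefficient of variation 3.72% against 10.6%). The log2 fold change of Camk2g was 0.19 with an SE of 0.053 (limma adjusted p 0.00572). Without the 5 libraries whose choroid plexus list reached 900 RPKM (WT replicates 1, 3 and 5, and R6/1 replicates 3 and 4), it was 0.12 (limma adjusted p 0.0316).

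Camk2d was the lowest of the CaMKII genes. It ranged from 6.32 to 13.0 RPKM in WT with a median of 8.36, and from 10.4 to 15.0 RPKM in R6/1 with a median of 12.6. The ranges overlapped through WT replicates 2 and 9, the highest WT libraries. Camk2d had the widest spread of the 10 genes, with a coefficient of variation of 24.4% in WT. Its mean rose from 8.94 ± 2.19 to 12.7 ± 1.72 RPKM (SD, n = 9 each), a log2 fold change of 0.50 with an SE of 0.11 (limma adjusted p 0.00106). Without the 5 libraries rich in choroid plexus, the log2 fold change of Camk2d was 0.42 (limma adjusted p 0.0202). An annotated transcript, Gm15551, overlaps Camk2d in antisense over 1704 bases, where the gene spans 249 kb. Strand use in the counting is not given in the sources used here.

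Because the subunits moved in opposite directions, the make-up of the CaMKII message was compared within each library, where the scaling between libraries cancels. The level of Camk2a was between 2.87 and 3.70 times that of Camk2b in WT and between 1.94 and 2.37 times in R6/1. The genotypes did not overlap, and the ratio averaged 3.30 ± 0.260 in WT against 2.05 ± 0.128 in R6/1 (SD, n = 9 each). On the log2 scale the ratio differed by -0.68 (exact permutation test, two-sided, p 4.11e-05, which is the minimum for 9 against 9 libraries). Camk2a thus fell by more than Camk2b in these libraries.

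Of the summed CaMKII RPKM, Camk2a made up 73.1% ± 1.33 in WT against 60.3% ± 1.29 in R6/1, and Camk2b 22.3% ± 1.38 and 29.5% ± 1.17 (SD, n = 9 each). Camk2g made up 4.02% ± 0.523 in WT against 8.52% ± 0.583 in R6/1, and Camk2d 0.626% ± 0.179 and 1.65% ± 0.275 (SD, n = 9 each). Each share separated the genotypes without overlap. These 4 shares and the ratio had the same two-sided exact permutation p of 4.11e-05, also after adjustment over the 5. The shares are parts of 1 total and so not independent, since a fall of Camk2a alone raises the others. The total itself fell from 1446 ± 99.4 to 774 ± 47.7 RPKM (SD, n = 9 each; log2 difference -0.90, two-sided exact permutation p 4.11e-05). In the 13 libraries poor in choroid plexus the ratio differed by -0.67 on the log2 scale (6 WT and 7 R6/1 libraries, two-sided exact permutation p 0.000583, the smallest possible there).

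**Figure D2:**
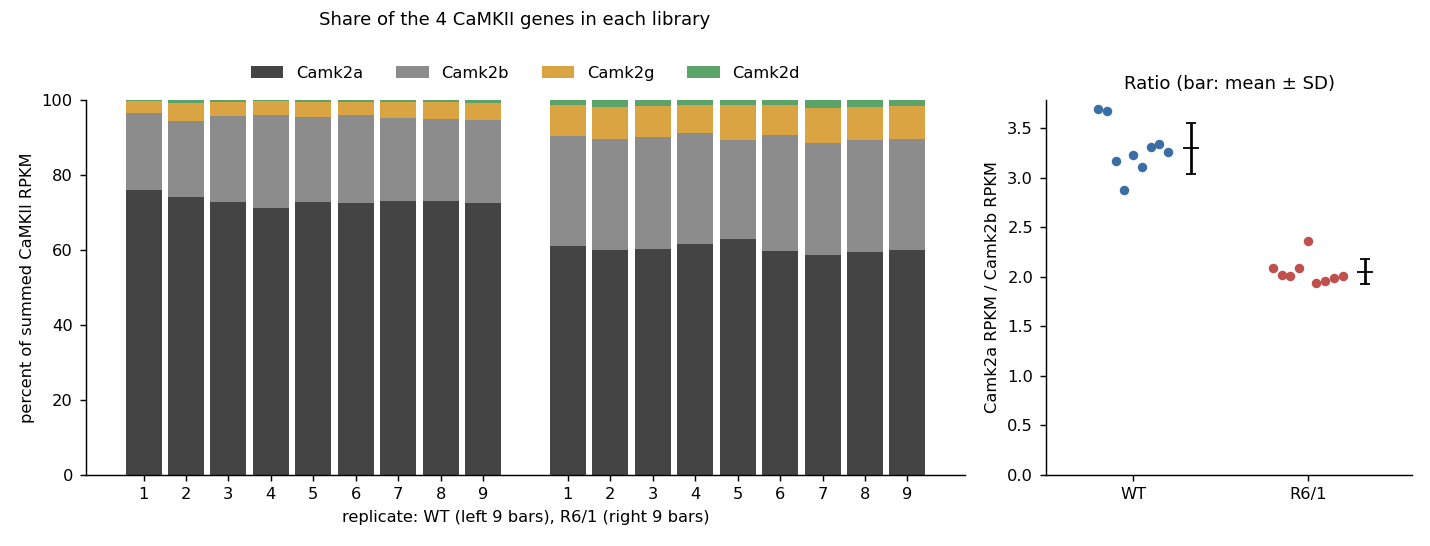
Left, the percent of the summed CaMKII RPKM (vertical axis) taken by each CaMKII gene in every library, WT replicates first and R6/1 replicates second. Right, the ratio of Camk2a to Camk2b RPKM per library with the mean ± SD. Camk2a takes at least 71.1% in every WT library and at most 62.8% in every R6/1 library.

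Both kinase kinase genes fell. Camkk2, whose product also activates AMP-activated kinase, ranged from 30.3 to 38.0 RPKM in WT with a median of 35.4, and from 17.2 to 20.8 RPKM in R6/1 with a median of 19.6. Its genotypes were separated by a gap wider than the range of either. The mean of Camkk2 fell from 34.8 ± 2.51 to 18.9 ± 1.23 RPKM (SD, n = 9 each), a log2 fold change of -0.86 with an SE of 0.046 (limma adjusted p 1.71e-11). Camkk1 ranged from 50.1 to 66.9 RPKM in WT with a median of 60.8, and from 30.8 to 42.4 RPKM in R6/1 with a median of 35.9. All R6/1 libraries of Camkk1 again lay below all WT libraries. The mean of Camkk1 fell from 58.8 ± 5.41 to 36.4 ± 3.97 RPKM (SD, n = 9 each), a log2 fold change of -0.69 with an SE of 0.063 (limma adjusted p 3.54e-08).

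Among the genes for the substrates of these kinases, Camk4 and Camk1g fell and Camk1 did not pass. Camk4, the nuclear CaMKIV, ranged from 14.7 to 19.2 RPKM in WT with a median of 17.1, and from 10.3 to 14.8 RPKM in R6/1 with a median of 12.8. Of the R6/1 libraries, 8 of 9 lay below every WT library, and replicate 8 reached the lowest WT value. The log2 fold change of Camk4 was -0.44 with an SE of 0.064 (limma adjusted p 1.11e-05). Camk1g, the gamma form of CaMKI, known for its role in dendrite growth, ranged from 8.72 to 11.3 RPKM in WT with a median of 9.81, and from 4.46 to 8.02 RPKM in R6/1 with a median of 6.74. The genotypes did not overlap, and R6/1 replicate 2 was the lowest library. This gene rested on between 183 and 427 reads per library, the fewest of the 10, and its log2 fold change was -0.56 with an SE of 0.085 (limma adjusted p 1.88e-05).

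Camk1, the alpha form of CaMKI, averaged 20.2 ± 2.75 RPKM in WT against 21.1 ± 2.22 RPKM in R6/1 (SD, n = 9 each). It ranged from 17.1 to 25.1 RPKM in WT with a median of 19.6, and from 17.7 to 24.7 RPKM in R6/1 with a median of 20.6. The R6/1 range of Camk1 lay wholly inside the WT range, and the log2 fold change of 0.06 (SE 0.074) did not pass (limma adjusted p 0.537). The end of Camk1 overlaps the DNA repair gene Ogg1 on the opposite strand over 945 bases, so reads of these genes may be mixed. Ogg1 itself was low, with means of 2.90 (WT) and 2.76 RPKM (R6/1).

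Nrgn was the second most abundant of the 10 genes in both genotypes. It ranged from 562 to 692 RPKM in WT with a median of 615, and from 411 to 500.0 RPKM in R6/1 with a median of 447. The WT libraries were spread over a wider range, and the R6/1 libraries all lay below it. The mean of Nrgn fell from 627 ± 56.6 to 447 ± 30.3 RPKM (SD, n = 9 each), a log2 fold change of -0.49 with an SE of 0.053 (limma adjusted p 3.81e-07). In WT every library held more Camk2a than Nrgn, and the ranges did not overlap. In R6/1 the ranges of these 2 genes overlapped, and Camk2a exceeded Nrgn in 6 of 9 libraries.

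The order of levels was otherwise similar in both genotypes. In WT it ran from Camk2a through Nrgn, Camk2b, Camkk1, Camk2g, Camkk2, Camk1, Camk4 and Camk1g to Camk2d. The neighbours Camkk1 and Camk2g, Camk1 and Camk4, and Camk1g and Camk2d had overlapping ranges in WT. In R6/1, Camk2g stood above Camkk1 in 9 of 9 libraries without overlap. Camk1 stood above Camkk2 in 9 of 9 R6/1 libraries, although their ranges overlapped. Camk1g came last in R6/1, below Camk2d in 9 of 9 libraries.

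Promoter sequence from RefSeq (build GRCm38.p6) was at hand for 7 of the 10 genes, as the 250 bases before and 50 after the annotated start. Shown are both kinase kinase genes and Nrgn, which fell, and Camk2d, which rose. Capitals mark matches to the GC box (GGGCGG), the CCAAT box, spelled by its name, and the core of a cAMP response element (TGACG), each on either strand.
Camkk2: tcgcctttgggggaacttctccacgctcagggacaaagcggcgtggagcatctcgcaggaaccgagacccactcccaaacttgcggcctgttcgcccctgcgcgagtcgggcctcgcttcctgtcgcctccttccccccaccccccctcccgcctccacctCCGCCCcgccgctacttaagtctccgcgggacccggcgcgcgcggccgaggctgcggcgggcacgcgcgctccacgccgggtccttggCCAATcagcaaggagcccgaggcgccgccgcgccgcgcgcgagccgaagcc
Camkk1: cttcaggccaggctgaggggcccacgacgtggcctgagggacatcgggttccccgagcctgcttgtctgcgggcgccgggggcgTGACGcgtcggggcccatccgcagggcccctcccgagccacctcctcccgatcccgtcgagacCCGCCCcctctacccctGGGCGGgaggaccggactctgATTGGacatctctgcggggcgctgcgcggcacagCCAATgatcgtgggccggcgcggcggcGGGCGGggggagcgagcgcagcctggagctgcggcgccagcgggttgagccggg
Nrgn: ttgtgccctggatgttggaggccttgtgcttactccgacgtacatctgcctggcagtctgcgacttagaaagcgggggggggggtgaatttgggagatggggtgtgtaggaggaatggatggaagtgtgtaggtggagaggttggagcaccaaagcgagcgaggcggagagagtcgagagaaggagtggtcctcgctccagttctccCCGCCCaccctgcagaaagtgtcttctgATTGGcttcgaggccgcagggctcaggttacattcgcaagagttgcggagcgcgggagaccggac
Camk2d: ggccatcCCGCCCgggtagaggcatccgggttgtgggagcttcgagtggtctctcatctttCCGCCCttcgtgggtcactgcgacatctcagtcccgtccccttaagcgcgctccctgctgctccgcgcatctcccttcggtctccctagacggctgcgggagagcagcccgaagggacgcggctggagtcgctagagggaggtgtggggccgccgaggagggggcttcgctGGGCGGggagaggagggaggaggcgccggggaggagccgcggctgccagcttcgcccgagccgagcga
These windows are chr5:122779361-122779660 (minus strand), chr11:73018738-73019037 (plus strand), chr9:37552696-37552995 (minus strand) and chr3:126596701-126597000 (plus strand). A GC box was in 5 of the 7 promoters, against 35.9% of 32544 promoters of the same length. Those 5 windows were from 59.3% (Nrgn) to 77.3% (Camk2b) G and C, where the median of all promoters is 53%. Camk1 and Camk1g, without a GC box, were at 60% and 44.7%. The match was not compared with promoters of like G and C content. A CCAAT box was in 4 of 7, against 37.4% of all, and TGACG in 2 of 7 (Camkk1 and Camk1), against 20.9% of all. The full element TGACGTCA was in 0 of 7, against 1.80% of all. Camkk2, Camkk1, Nrgn and Camk1g, all lower in R6/1, hold a CCAAT box, but Camk2b, also lower, holds GC boxes and no CCAAT box, as does Camk2d, which was higher. Camk1g holds no GC box. These matches describe letters in the window and not binding.

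The other genes of calmodulin signalling were examined as a list of 48 genes in 8 groups, of which 47 could be tested. In R6/1, 25 of the 47 (53.2%) were lower, where the background of all tested genes is 23.5%, and 9 (19.1%) were higher, where it is 24.8%. The median log2 fold change of the list was -0.15. The list leans on neuronal genes, and the pan-neuronal markers fell in the same libraries.

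Calmodulin itself is encoded by several genes with the same protein product. Calm3 fell from 761 ± 58.9 to 569 ± 25.1 RPKM (SD, n = 9 each; log2 fold change -0.42, limma adjusted p 2.59e-07), and the genotypes did not overlap. Calm2 averaged 1044 ± 59.3 RPKM in WT against 1044 ± 54.5 RPKM in R6/1 (SD, n = 9 each; limma adjusted p 0.994). Among the genes listed as relatives of neurogranin, Pcp4 was lower (log2 fold change -0.79) and Pcp4l1 was lower (-0.24). The axon growth gene Gap43 was higher, from 78.2 ± 10.8 to 106 ± 10.0 RPKM (SD, n = 9 each; log2 fold change 0.44).

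The endogenous inhibitors of CaMKII moved in opposite directions. Camk2n1 fell from 241 ± 34.0 to 134 ± 18.0 RPKM (SD, n = 9 each; log2 fold change -0.85, limma adjusted p 1.01e-07). Camk2n2 rose from 52.4 ± 7.01 to 80.7 ± 9.47 RPKM (SD, n = 9 each; log2 fold change 0.62, limma adjusted p 1.45e-06). Neither inhibitor had overlapping genotypes, a separation in either direction shown by 11.9% of all tested genes. Of 9 other tested members or relatives of the kinase family, 5 (55.6%) were lower with limma, where 23.5% of all tested genes were, and 0 higher. An unadjusted limma p under 0.05 was reached by 5, and 5 were called in the authors' deposited table. Camk1d, the delta form of CaMKI, was lowest at a log2 fold change of -0.55. Both CaM kinase phosphatases were lower, Ppm1e by more (log2 fold change -0.40).

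Calcineurin, the calmodulin-dependent phosphatase that opposes CaMKII at the synapse, showed a split. Its subunits Ppp3ca, Ppp3r1 and Ppp3cb were lower, with log2 fold changes of -0.81, -0.51 and -0.21, and the log2 fold change of Ppp3cc was 0.02 (limma adjusted p 0.797). Its regulators Rcan1, Rcan2 and Rcan3 were higher, by 0.21, 0.47 and 0.42 on the log2 scale. The largest of these, Ppp3ca, fell from 355 ± 36.9 to 202 ± 16.4 RPKM (SD, n = 9 each; limma adjusted p 1.79e-09).

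Scaffolds and substrates of CaMKII at the synapse were mostly lower. By limma 7 of 9 (77.8%) were lower, where 23.5% of all tested genes were, and 0 were higher. An unadjusted limma p under 0.05 was reached by 7, and 7 were called in the authors' deposited table. The NMDA receptor subunit gene Grin2a led with a log2 fold change of -0.80, from 19.2 ± 3.48 to 10.8 ± 2.14 RPKM (SD, n = 9 each). Of the 12 targets of CaMKIV, CaMKI and the kinase kinases, 3 (25%) were lower and 4 (33.3%) higher. Among all tested genes these shares were 23.5% and 24.8%, so the group lay near the background. Crtc1, a coactivator of CREB, had the largest change at -0.32 on the log2 scale, and Creb1 itself was higher by 0.17 on the same scale. When libraries were scaled to the sum of their own reads, Pcp4l1, Mylk, Eef2k, Ppm1f, Mef2d and Cpeb1 no longer passed (limma adjusted p between 0.111 and 0.399), and Dclk2 and Crtc3 passed as higher.

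**Figure D3:**
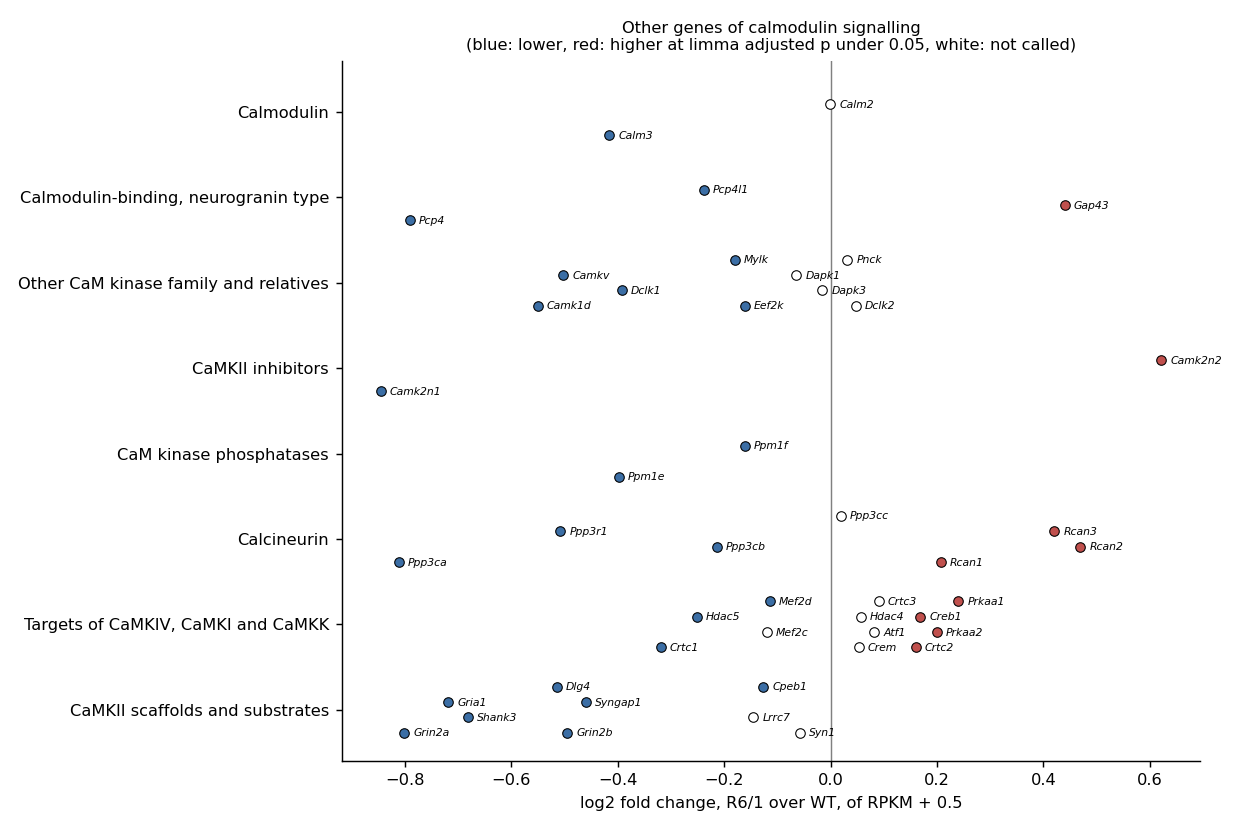
Log2 fold change of RPKM + 0.5 between R6/1 and WT (horizontal axis) for tested genes of the calmodulin list, by group (vertical axis), one point per gene; 1 of the 47 is not drawn. Blue points are lower and red points higher at a limma adjusted p under 0.05, and white points did not pass. Camk2n1 and Camk2n2 lie on opposite sides of 0, as do the calcineurin subunits that passed and the Rcan genes.

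Genes outside the family with the most similar pattern over the 18 libraries were ranked by the root mean square difference of mean-centred log2 values, among 13095 genes averaging 1 RPKM or more. For Camk2a these were Ano3 (0.098), Enc1 (0.10) and Chgb (0.11), against a median of 0.62 over all genes compared. For Camkk2 they were Sema7a (0.075), Rapgefl1 (0.094) and Syt7 (0.094), against a median of 0.47. For Camk2d they were Hs6st2 (0.14), Slc35f1 (0.15) and Gabra3 (0.15), against a median of 0.38. For Camk2g they were Med23 (0.065), Usp7 (0.068) and Smarcc2 (0.069), against a median of 0.21. Values were centred over all 18 libraries, so the difference between genotypes is part of the pattern. Among the 10 genes themselves, the one nearest to Camk2a was Camkk2, at 0.21.

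Relations between the levels of the 10 genes were computed within each genotype. Of 90 relations (45 pairs in each genotype, n = 9 libraries), 0 passed after adjustment by an exact permutation of Pearson's r, while 9 in WT and 7 in R6/1 had an unadjusted p under 0.05. The highest was Camk2d with Camk1 in WT (Pearson r 0.89, exact permutation p 0.00105, adjusted 0.0942; Spearman rho 0.80, exact permutation p 0.0138, adjusted 0.249). Without the 2 libraries farthest from the median of Camk2d the r was 0.72. The median r over the pairs was 0.17 in WT and 0.062 in R6/1.

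The positions of the genes were set against the authors' lamin B1 domains, stretches of chromatin at the nuclear lamina called from ChIP-seq of pools of 5 mice. The labels give replicate ChIP-seq libraries for each genotype, but the domains come as 1 list per genotype and so without replicate spread. Positions are in build NCBIM37, the same assembly as mm9. Of the 10 starts, 0 lay in a WT domain, where 13.0% of 12827 tested genes with a position did. In R6/1, 1 of the 10 starts lay in a domain, where 7.99% of these genes did. That gene was Camk2d (chr3:126299220-126547972, plus strand, protein-coding). The WT domain ended 18.2 kb before its start and the R6/1 domain 55.8 kb past it, inside the gene body, a difference of 74 kb. That is 2 steps of 37 kb, the largest step that divides the length of every domain that ends on a whole kb. Its RNA level was higher in R6/1, as given above.

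Camk2a (chr18:61085272-61147806, plus strand) lay 0.442 Mb from the nearest WT domain and 0.479 Mb from the nearest R6/1 domain. Nrgn (chr9:37352078-37360330, minus strand) was closer, at 0.158 and 0.121 Mb. Camkk1 (chr11:72832510-72855575, plus strand) was 17.7 Mb from any WT domain and 0.316 Mb from an R6/1 domain of 1.04 Mb, and Camkk2 (chr5:123183213-123229391, minus strand) was 34.3 and 13.0 Mb away. Camk2b (chr11:5869647-5966365, minus strand) and Camk4 (chr18:33098695-33355421, plus strand) lay between 1.35 and 3.06 Mb from the nearest domain of either list. Camk1 (chr6:113284118-113293978, minus strand) was 1.29 and 1.33 Mb away, while Camk2g (chr14:21554097-21613310, minus strand) and Camk1g (chr1:195172540-195196491, minus strand) were at least 9.29 Mb away in both. All are protein-coding. The starts of Camk2a, Camk2b, Camk4, Camkk1, Camkk2, Camk1g and Nrgn, all lower in R6/1, were outside the domains of both genotypes. So were the starts of most tested genes, with 13.0% inside a domain in WT and 7.99% in R6/1.

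Because pan-neuronal markers fell in the same libraries, the 10 genes were also scaled to the summed level of that list, a measure added after the data were seen. On this scale the median of all tested genes moved to 0.37 (log2), and 3 of the 10 genes were lower and 3 higher, where 4.78% of all tested genes were lower and 72.7% higher. Camk2a (log2 fold change -0.76), Camkk2 (-0.46) and Camkk1 (-0.28) fell by more than the summed list. Camk2b (-0.082, limma adjusted p 0.233), Nrgn (-0.074, limma adjusted p 0.212), Camk4 (-0.044, limma adjusted p 0.469) and Camk1g (-0.18, limma adjusted p 0.056) did not pass. Camk2d (0.90), Camk2g (0.60) and Camk1 (0.46, limma adjusted p 9.03e-05) were higher. Snap25 is the largest term of that sum, with a WT mean of 1055 RPKM of a summed 1826 RPKM, so the scale follows it most. On the deposited scale Snap25 had a log2 fold change of -0.51. For Rbfox3 it was -0.32, for Syt1 -0.31, for Map2 -0.29 and for Tubb3 -0.23.

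**Figure D4:**
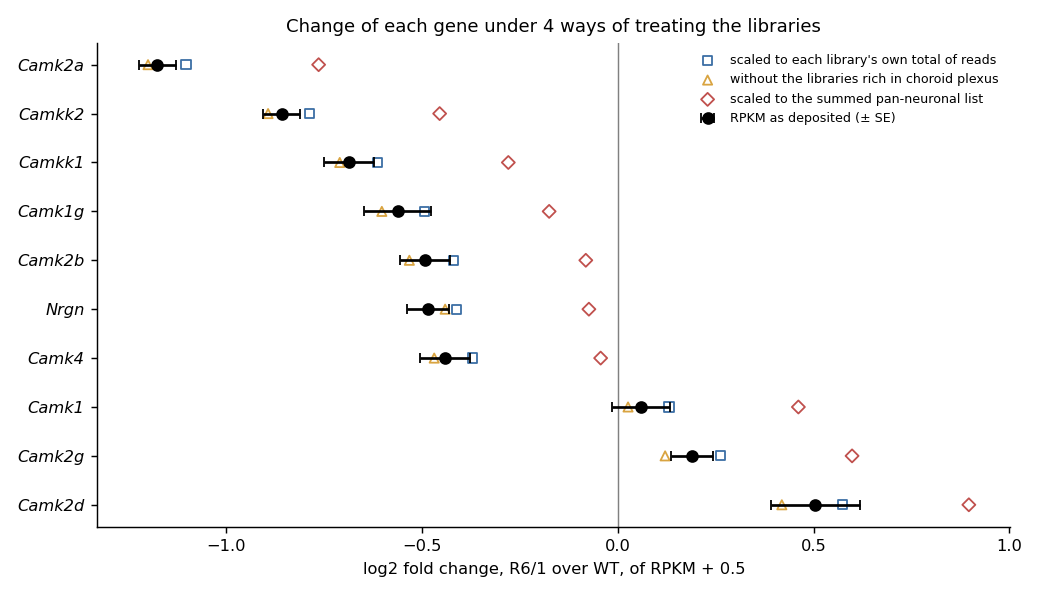
Log2 fold change of RPKM + 0.5 between R6/1 and WT (horizontal axis) for each of the 10 genes (vertical axis). Black points are the deposited RPKM with their SE, squares the scaling to each library's own reads, triangles the fit without the 5 libraries rich in choroid plexus, and diamonds the scaling to the summed pan-neuronal list. All 7 genes that were lower keep to the left of 0 under all 4, but on the pan-neuronal scale only Camk2a, Camkk2 and Camkk1 of them pass.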

How the data were processed

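RNA-seq libraries of messenger RNA were made with a stranded kit from 9 WT and 9 R6/1 hippocampi, per the labels' protocols. Alignment with TopHat to mm9 and comparison with DESeq2 are recorded in the submitters' processing notes, without versions; the counter and annotation are not given in the sources used here. The authors deposited RPKM per gene symbol and a table of the comparison, with a mean normalized count (a signal), log2 fold changes and their errors, a test score, p-values and adjusted p-values. RPKM times the ratio of mean normalized count to mean RPKM is a whole multiple of 1 step per library for 99.6% to 99.7% of low values (within 0.05 of a read), which gives the reads per library. The lamin B1 domains, per the file names, come from the EDD caller with 1 score per domain, from Bowtie alignments per the submitters' processing notes; the score was not used.

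Each gene was tested with limma 3.58.1 (R 4.3.3; lmFit, eBayes with trend, two-sided) on log2(RPKM + 0.5) over genes averaging 0.5 RPKM or more, with Benjamini-Hochberg adjustment over all of them and a threshold of 0.05. Fold changes of low genes are understated on this scale. Ratios and sums were compared by exact permutation over libraries (Python 3.11.15). The fit and the permutation test were tested on simulated data. Genes named by rule are the 10 genes, the gene with the largest called change in each group of the calmodulin list with calmodulin, inhibitor and calcineurin genes, and the 3 genes most alike to the 2 largest called decreases and increases; Pcp4l1, Creb1, Ogg1 and those whose call changed with the scaling were named after their values were seen, and 1 gene under the rule is not reported here. The 10 genes and the lists were chosen with earlier results of these data known. Alternatives were other pseudocounts, filters, scalings, an Xist covariate, weights, the replicate number as a block, the authors' deposited table and leaving out each library; those on choroid plexus and pan-neuronal markers were added after the data were seen. Whether equal replicate numbers pair the libraries was checked, and the labels give no shared source. The number of unused columns with values of single samples is 0. ATAC-seq was not analysed here.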

Additional observations from a re-analysis of the deposited data

Results flagged for a closer look

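In R6/1 replicate 5 the log2 ratio of Camk2a to Camk2b was 1.24, above the next R6/1 library at 1.06, a gap large against the range of the other libraries. In the same library Camk2b made up 26.6% of the summed CaMKII RPKM, below the next at 29.3%. That library had the lowest Camk2b level of the R6/1 libraries, 193 RPKM. Among 32 groups of 9 libraries examined, 2 had such a gap, where chance gives about 1.6 for independent groups. Both of these measures contain Camk2b and are not independent, so the 2 numbers cannot be weighed against each other.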

How the results depend on the processing

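Under 30 alternatives, 7 of the 10 genes stayed lower and 2 higher in each one, and Camk1 passed in 0 of them (limma adjusted p, or adjusted p of the authors' deposited table, between 0.173 and 0.767). The log2 fold change of Camk2a ranged from -1.20 to -1.07, that of Camkk2 from -0.88 to -0.79, that of Nrgn from -0.51 to -0.33 (lowest in size under quantile normalization), that of Camk2d from 0.45 to 0.57 and that of Camk2g from 0.15 to 0.26. The fits on choroid plexus are not among these 30. Without the libraries rich in choroid plexus, Camk2d was at 0.42 and Camk2g at 0.12, below these ranges. With the choroid plexus list as a covariate they were at 0.54 and 0.22. Leaving out each library in turn moved the log2 ratio of Camk2a to Camk2b between -0.71 and -0.66. Scaled to the pan-neuronal list, a measure added after the data were seen, 3 in place of 7 of the genes were lower, and 4.78% in place of 23.5% of all tested genes, where the summed list in R6/1 was 0.751 of that in WT. The labels give both genotypes the numbers 1 to 9 without saying that a number is shared. Deviations of same-numbered libraries had correlations from -0.053 to 0.24, over 0.1 in 3 of 9 pairs, and 2 of 9 WT libraries matched best with their own number, so the libraries were not treated as pairs. With the replicate block, 7133 genes were called in place of 6980, the 10 genes gave the same counts of 7 lower and 2 higher, and the log2 ratio had a two-sided exact sign-flip p of 0.00391, the smallest 9 pairs allow. The Xist covariate had little to work on, since Xist was at most 0.0365 RPKM. Depth limits Camk1g most, with 183 reads in its lowest library, and Camk1, with 310.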
